A study of Homo sapiens with 4 samples.

Results

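The miR-135 family in this data set comprised the assays of hsa-miR-135b and hsa-miR-135a, hereafter miR-135b and miR-135a, 2 of the 377 human miRNA assays on the array card, and both were selected by name. Each was read in 4 samples from RPMI8226, a human cell line derived from multiple myeloma (a plasma cell cancer), with 1 sample per group. The groups were the exosome fraction of culture medium after 24 h in hypoxia (1% oxygen), the exosome fraction after 24 h in normoxia (20% oxygen), the cells after 24 h in hypoxia and the cells after 24 h in normoxia. The labels describe AIM-V medium for these cultures, and exosomes, small vesicles that cells release, were collected from the medium with a precipitation reagent that enriches vesicles without purifying them. The samples stand for 1 cell line, and no separate cultures are described, so no difference between groups has a replicate error and no p-value is given. Each value is a threshold cycle (Ct), the PCR cycle at which the fluorescence of a well crosses a threshold, so a lower Ct means more starting RNA, with a factor of 2 per cycle if amplification is complete. A Ct of 35 was the highest in the table and was read as not detected.

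miRNAs are short RNAs that guide the Argonaute protein to messenger RNAs, mainly through pairing of their seed, bases 2 to 8, and so lower the output of those messages. The miR-135 family has been reported to repress APC, a brake on Wnt signalling, JAK2, a cytokine receptor kinase, and SMAD5, a mediator of bone morphogenetic protein signals in osteoblasts. miR-135b has also been linked to HIF1AN, which encodes factor-inhibiting HIF. That oxygen-dependent enzyme hydroxylates an asparagine of hypoxia-inducible factor (HIF) and keeps it from its coactivators, while prolyl hydroxylases and the VHL ubiquitin ligase act on HIF stability. Neither HIF1AN nor any other target was measured here, so the description of the family as regulators of factor-inhibiting HIF could not be checked in these samples.

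The mature sequences are shown because both members carry the same seed and differ outside it. They are RefSeq entries of the GRCh38.p14 build, written 5′ to 3′ with the seed in capitals.
miR-135b-5p: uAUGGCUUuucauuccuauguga
miR-135a-5p: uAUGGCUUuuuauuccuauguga
Both were 23 bases long, 22 of the positions were identical, and the difference was U11C, written as the miR-135a base, the position counted from 1 at the 5′ end, and the miR-135b base. Among the 2370 mature human miRNAs in the RefSeq table, the 7-base seed AUGGCUU was found in these 2 and in no other. By name, 326 of the 377 assays matched an entry of that table, and the other 51 were not searched for the seed. How far each assay reads the other member, from which it differs by this base, was not measured.

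The family is made from 3 hairpins, shown here with the mature 5p strand in capitals because the miR-135a assay cannot tell its 2 source genes apart.
MIR135B: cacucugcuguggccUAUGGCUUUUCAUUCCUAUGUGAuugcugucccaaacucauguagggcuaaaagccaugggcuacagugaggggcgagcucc
MIR135A1: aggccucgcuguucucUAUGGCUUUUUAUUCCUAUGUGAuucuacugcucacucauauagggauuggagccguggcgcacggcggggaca
MIR135A2: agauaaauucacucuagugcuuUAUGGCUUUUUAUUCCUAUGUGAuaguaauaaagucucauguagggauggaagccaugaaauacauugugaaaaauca
MIR135B lies at chr1:205448302-205448398 on the minus strand, within the spans of LEMD1 and BLACAT1. MIR135A1 lies at chr3:52294219-52294308 on the minus strand, within the span of GLYCTK, and MIR135A2 at chr12:97563812-97563911 on the plus strand, within the span of the long noncoding RNA RMST. The same mature miR-135a sequence is found at bases 17 to 39 of MIR135A1 and at bases 23 to 45 of MIR135A2, so a miR-135a value sums over both genes. The opposite (3p) strands were not analysed here.

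Both members were detected in all 4 samples, and miR-135a had the lower Ct in each. miR-135b had a Ct of 29.97 in the hypoxic and 29.98 in the normoxic exosome fraction, and 33.96 in hypoxic and 34.16 in normoxic cells. In cells it thus lay close to the limit of detection, 1.04 and 0.84 cycles below the ceiling. miR-135a had a Ct of 27.99 in the hypoxic and 27.84 in the normoxic exosome fraction, and 32.96 in hypoxic and 32.99 in normoxic cells.

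**Figure D1:**
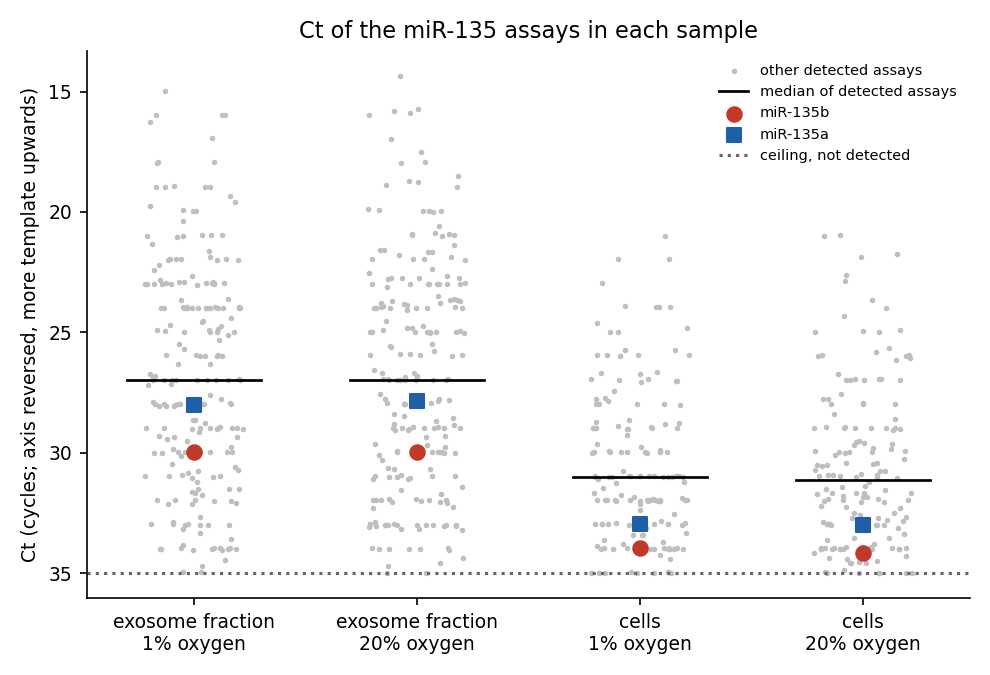
Ct of each detected miRNA assay (vertical axis in cycles, reversed so that more template is higher) in the 4 samples, with miR-135b as red circles, miR-135a as blue squares, the median of detected assays as a black line and the ceiling of 35 as a dotted line. Both members lie below the median line in every sample, miR-135b below miR-135a, and miR-135b in cells lies next to the ceiling at 33.96 and 34.16.

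Both members had a Ct above the median of the detected assays in every sample. Reading an order by Ct as one of abundance assumes equal assay efficiency. Among the detected assays, miR-135b stood at position 157 of 219 in the hypoxic and 156 of 221 in the normoxic exosome fraction, counted from the lowest Ct. In cells its position was 135 of 155 in hypoxia and 146 of 162 in normoxia, so 12.9% and 9.88% of the detected assays had a higher Ct. miR-135a stood at position 130 of 219 in the hypoxic and 123 of 221 in the normoxic exosome fraction, and at 114 of 155 in hypoxic and 119 of 162 in normoxic cells. In the hypoxic and normoxic exosome fractions, 40.6% and 44.3% of the detected assays had a higher Ct than miR-135a. The median Ct of the detected assays was 26.97 and 26.96 in the hypoxic and normoxic exosome fractions, and 30.99 and 31.12 in hypoxic and normoxic cells. The exosome products were pre-amplified and those of the cells were not, so these Ct values are not on a common scale across the compartments.

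All 5 lymphoid and blood assays of the marker list were detected in both cell samples, with the lowest Ct for miR-142-3p (24.97 in hypoxia and 24.95 in normoxia), and none of the 3 red cell assays was. Of the 4 epithelial assays 3 were detected in both cell samples, at a Ct of 30.95 or more. Of the nervous system assays, miR-9 was detected at 28.87 in hypoxic and 28.94 in normoxic cells, a lower Ct than those of the lymphoid assays miR-150, miR-155 and miR-142-5p, and miR-124 was not detected in cells. Of the muscle assays, miR-133a was detected in hypoxic cells alone and miR-1 in neither cell sample, and the liver assay miR-122 was at the ceiling in all 4 samples. U6, the small nuclear RNA used to normalize the cells, had a Ct of 18.81 ± 0.12 in hypoxic and 18.82 ± 0.15 in normoxic cells (SD, n = 4 wells of 1 sample). The plant spike-in ath-miR159, used for the exosome fraction, had a Ct of 22.99 in hypoxia and 22.94 in normoxia. The U6 wells were the only repeated wells, with a pooled SD of 0.14 cycles, and that spread belongs to an abundant RNA rather than to assays near the ceiling.

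The first comparison asked whether cellular levels of the family differ with oxygen. After subtraction of the U6 mean, miR-135b stood at 15.14 cycles in hypoxic and 15.35 cycles in normoxic cells. This is a log2 change (hypoxia over normoxia) of 0.20, or 1.15-fold. With the mean of RNU44 and RNU48 as normalizer, which lowered every cellular log2 change by the same amount (-0.15), it was 0.05. Relative to U6, RNU44 itself had a log2 change of 0.29 and RNU48 of 0.01, each from 1 well per sample. The shift thus came mainly from RNU44. miR-135a stood at 14.14 cycles in hypoxic and 14.18 cycles in normoxic cells, a log2 change of 0.03 or 1.02-fold that became -0.12 with RNU44 and RNU48. Among the 147 assays detected in both cell samples, the log2 change of miR-135a was the median itself, at position 74 from the highest, and miR-135b was at position 56. The middle 50% of these assays lay between -0.29 and 0.39, and both members were inside that range.

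Neither member passed 2-fold in cells, where 13.6% of the assays did (20 of 147). Both members lay in the late part of the Ct range, where the log2 changes of the assays were spread more widely. No late assay had repeated wells, so the share of well noise in this spread was not tested. Of the 50 assays with a mean Ct of 32 or more in cells, 28% were past 2-fold, against 6.19% of the 97 assays with a lower mean Ct. The median size of the log2 change was 0.59 in the late group and 0.23 in the other group.

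The second comparison asked the same of the exosome fraction, where the members had a lower Ct. Relative to the spike-in, miR-135b stood at 6.98 cycles in the hypoxic and 7.04 cycles in the normoxic exosome fraction. The log2 change was 0.06, or 1.04-fold, and 0.26 when the median Ct of each sample served as normalizer, which raised every log2 change of the exosome fraction by 0.20. miR-135a stood at 5.00 cycles in the hypoxic and 4.90 cycles in the normoxic exosome fraction. Its log2 change was -0.10, a ratio of 0.932, and turned to 0.10 with the median normalizer. The authors' deposited table gives ratios of 1.0424 for miR-135b and 0.932 for miR-135a in the exosome fraction, and 1.1496 and 1.0231 in cells, which differ from the recomputed ones by at most 0.000124 on the log2 scale.

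Neither member passed 2-fold in the exosome fraction, where 7.39% of the assays did (15 of 203). The middle 50% of the 203 assays lay between -0.31 and 0.12, and both members were inside it. Of these assays, 34 had a log2 change closer to 0 than miR-135b and 51 had one closer to 0 than miR-135a. The wider spread of log2 changes at late Ct values was seen here too. Past 2-fold were 43.5% of the 23 assays with a mean Ct of 32 or more and 2.78% of the other 180, which include both members.

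**Figure D2:**
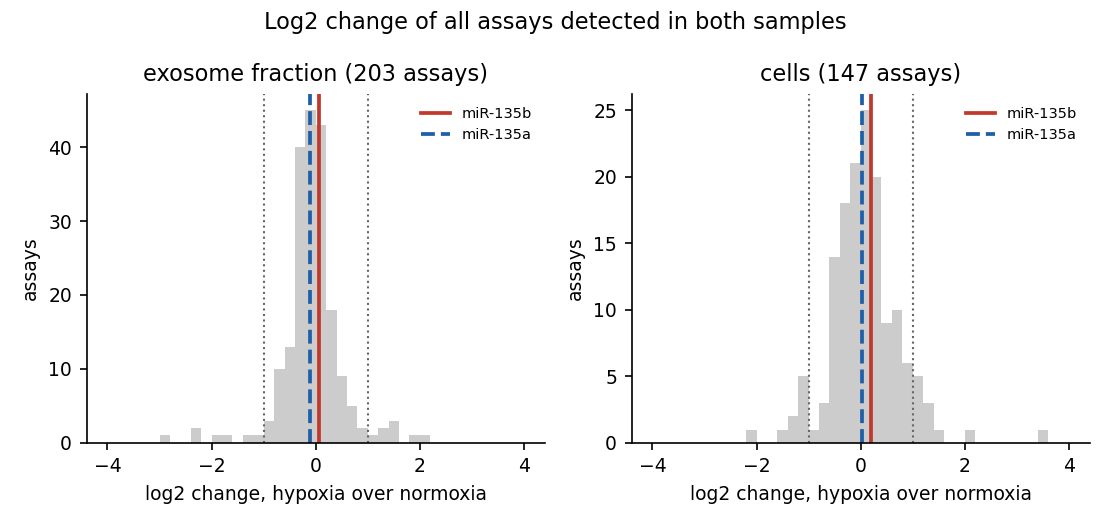
Number of assays (vertical axis) by log2 change of hypoxia over normoxia (horizontal axis), for 203 assays in the exosome fraction and 147 in cells. miR-135b (red line) is at 0.06 and 0.20 and miR-135a (blue dashed line) at -0.10 and 0.03, in the centre of both distributions and inside the dotted 2-fold lines. The sign for miR-135a flips in the exosome fraction with the median normalizer (0.10). In cells it flips with the mean of RNU44 and RNU48 (-0.12), a shift that came mainly from RNU44.

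The next comparison asked whether the oxygen response differed between the exosome fraction and the cells. The log2 change of miR-135b was 0.06 in the exosome fraction and 0.20 in cells, a difference of -0.14, and that of miR-135a was -0.10 and 0.03, a difference of -0.13. These changes are unlike measures, since cells were normalized to their own U6 and the exosome fraction to an added spike-in. A shift between the normalizers therefore enters the difference of every assay. With the median Ct over the 138 assays detected in all 4 samples as normalizer in both compartments, the differences were -0.23 for miR-135b and -0.23 for miR-135a. With U6 and the spike-in, the median difference over these assays was -0.17, with the middle 50% between -0.59 and 0.15. Both members lay next to that median, and neither was past 2-fold, which 15.9% of the 138 assays were (22 of 138).

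These small differences stand beside a property of the whole table. Of the 757 Ct values under 35 in the 4 samples, 480 (63.4%) lay within 0.1 of a whole cycle, a window that covers 20% of a cycle. Of the 8 Ct values of the family, 6 did so, and the exceptions were miR-135b in normoxic cells (34.16) and miR-135a in the normoxic exosome fraction (27.84). miR-135b in the exosome fraction and miR-135a in cells had both of their Ct values near a whole cycle. They differed between hypoxia and normoxia by -0.01 and -0.04 cycles before normalization. In all, both Ct values were near a whole cycle for 35 of the 147 assays in cells and for 50 of the 203 in the exosome fraction. How far this gathering moves a difference of less than 1 cycle was not tested, nor was its origin.

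**Figure D3:**
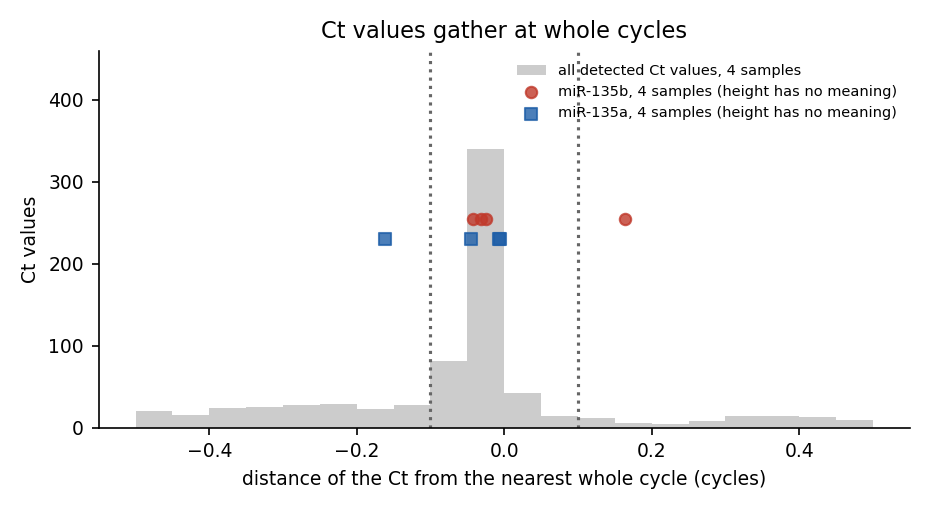
Number of detected Ct values in the 4 samples (vertical axis) by their distance from the nearest whole cycle (horizontal axis, cycles), with the 4 values of miR-135b (red circles) and of miR-135a (blue squares) placed above at an arbitrary height. The values peak just below 0, and 6 of the 8 family values lie between the dotted lines at 0.1 cycle on either side.

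The last comparison concerned the exosome fraction relative to cells. Both members gained fewer cycles in the exosome fraction than most assays. The Ct of miR-135b was 3.99 cycles lower in the hypoxic exosome fraction than in hypoxic cells and 4.19 cycles lower in the normoxic exosome fraction than in normoxic cells. For miR-135a these differences were 4.96 and 5.16 cycles. The median over the 138 assays detected in all 4 samples was 6.15 cycles in hypoxia and 6.51 in normoxia, with the middle 50% between 5.00 and 7.01 in hypoxia and between 5.42 and 7.29 in normoxia. Counted from the largest difference, miR-135b was at position 121 of 138 in hypoxia and 120 in normoxia, and miR-135a at 109 and 108. These positions do not depend on a normalizer and nearly repeat between the oxygen conditions.

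A level between the compartments needs a common reference, and the result depended on it. After each sample's median Ct over the 138 assays was subtracted, miR-135b had a log2 level in the exosome fraction over cells of -2.99 in hypoxia and -2.76 in normoxia, and miR-135a of -2.02 and -1.79. miR-135b was thus at least 4-fold lower in both oxygen conditions, as were 16.7% of the assays (23 of 138), while miR-135a passed 4-fold in hypoxia and not in normoxia. In the single conditions 34 of the 138 assays (24.6%) were at least 4-fold lower in hypoxia and 25 (18.1%) in normoxia. At least 4-fold higher in both were 4 assays (2.9%), and with the mean Ct in place of the median the counts were 9 higher and 16 lower. Subtracting the median of all miRNAs detected in each sample, a set that differs between the samples, gave -0.02 and 0.03 for miR-135b and 0.95 and 1.00 for miR-135a, so no direction between the compartments is given for either member. Unequal pre-amplification of single assays and unequal content cannot be told apart, since all exosome products and no cell products were pre-amplified.

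**Figure D4:**
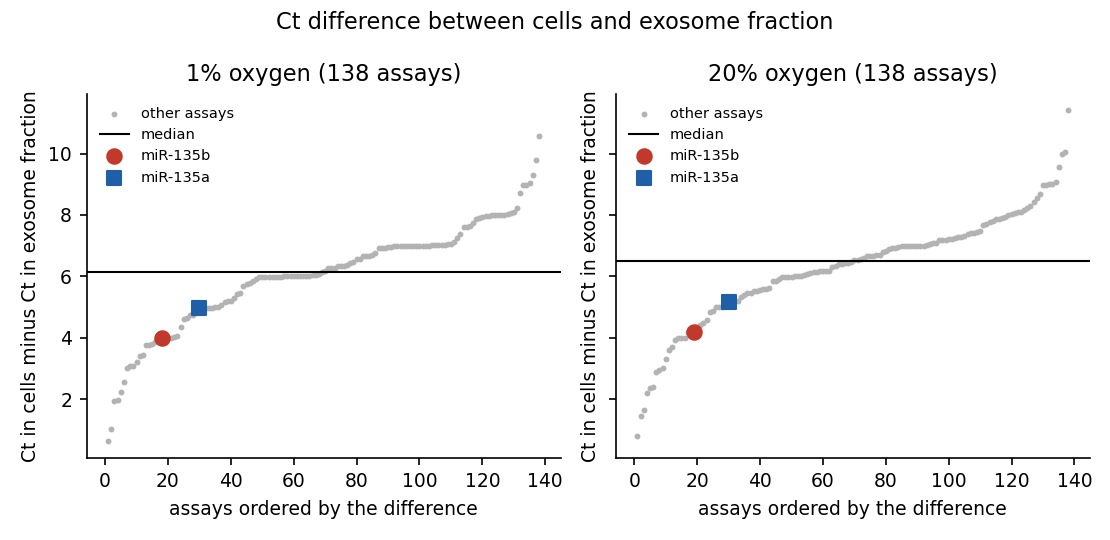
Ct in cells minus Ct in the exosome fraction (vertical axis, cycles) for the 138 assays detected in all 4 samples, ordered from the smallest difference (horizontal axis, position), in hypoxia (left) and normoxia (right). The black line is the median, 6.15 and 6.51 cycles, and both miR-135b (red circle) and miR-135a (blue square) lie below it, at 3.99 and 4.96 cycles in hypoxia and 4.19 and 5.16 in normoxia.

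The gap between the members can be read within each sample, without a normalizer. The Ct of miR-135b exceeded that of miR-135a by 1.98 cycles in the hypoxic and 2.14 cycles in the normoxic exosome fraction. In cells it did so by 1.00 cycle in hypoxia and 1.17 cycles in normoxia. The gap was wider in the exosome fraction than in cells by 0.97 cycles in hypoxia and 0.97 cycles in normoxia, close to 1 whole cycle. No repeated wells at such late Ct values give an error for it. A gap of 1.00 to 2.14 cycles stands for 2.00-fold to 4.40-fold more miR-135a than miR-135b if both assays amplify equally, which was not measured.

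miR-135a was not the assay most like miR-135b. Likeness was measured as the root mean square difference in Ct, centred on each sample's median, over the 4 samples and among the other 137 assays detected in all of them. The nearest to miR-135b were miR-193a-3p (0.52 cycles), miR-449b (0.62), miR-636 (0.71), miR-32 (0.82) and miR-212 (0.88), and miR-135a was at position 20 (1.65). The nearest to miR-135a were miR-429 (0.57), miR-671-3p (0.59), miR-500 (0.65), miR-301b (0.66) and miR-483-5p (0.68), and miR-135b was at position 35. Levels near those of miR-135b came with unlike responses in cells. The log2 change there was 1.59 for miR-193a-3p, 1.34 for miR-32 and 0.25 for miR-212, and it was 0.00 for miR-636 and -1.01 for miR-449b. All of them had a Ct above 33 in both cell samples.

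Other miRNAs tied to the HIF axis in the literature give the setting for the family. Of the 18 assays in that list, 12 were detected in both cell samples, 2 in hypoxic cells only and 4 in neither. Their median log2 change was 0.12, against 0.03 for all 147 assays. Past 2-fold were miR-210, a transcriptional target of HIF (3.55), and miR-429, a reported repressor of HIF1A (-1.47), and the other 10 were within 2-fold. That is 2 of 12, near the 13.6% of all assays past 2-fold in cells, and miR-429 lay in the late Ct range, where 28% were. In the exosome fraction 14 of the 18 were detected in both samples, all within 2-fold, with a median of -0.09 against -0.07 for all 203 assays, and miR-210 was at 0.39.

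Among the reported repressors of HIF1AN, none showed a difference past 2-fold with oxygen. miR-31, reported to lower factor-inhibiting HIF in squamous carcinoma cells, had a Ct of 24.96 in the hypoxic and 24.80 in the normoxic exosome fraction, and 29.94 in hypoxic and 29.99 in normoxic cells. Its log2 change was -0.11 in the exosome fraction and 0.05 in cells. miR-24 was at -0.25 in the exosome fraction and 0.08 in cells, and miR-182 stood at the ceiling in all 4 samples. The 2 that were detected have lower Ct values than miR-135a and miR-135b in every sample, and their seeds, in capitals, differ from that of the family and from each other.
miR-31-5p: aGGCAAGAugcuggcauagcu
miR-24-3p: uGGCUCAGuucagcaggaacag

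Of the miRNAs reported to act on HIF itself or its partners, miR-155 had the largest difference in cells after miR-429 among those detected in both samples. It was at 0.69 in cells and 0.13 in the exosome fraction. Other reported repressors of HIF1A were within 2-fold in cells (miR-17 at -0.07, miR-18a at 0.16, miR-20a at -0.34 and miR-20b at 0.21), as was miR-138 (0.23). miR-92a, a reported repressor of VHL, was at 0.10 in the exosome fraction and -0.02 in cells. Seen in hypoxic cells only were miR-424, a reported repressor of the ubiquitin ligase subunit CUL2, and miR-107, a reported repressor of the HIF partner ARNT. If the normoxic wells at the ceiling did not fail, miR-424 (Ct 33.33) was at least 3.16-fold higher and miR-107 (Ct 33.10) at least 3.72-fold higher. Each bound was computed against the ceiling from 1 well. Whether any well at the ceiling had failed was not tested. Some such wells stood beside a far lower reading of the same assay. For miR-493 the cells read 35 under hypoxia but 20.94 under normoxia. For miR-520e the exosome fraction read 18.98 under hypoxia but 35 under normoxia. Over the whole card 8 of the 377 assays were seen in hypoxic cells only and 15 in normoxic cells only. miR-22 was seen in the exosome fraction and not in cells. The pre-amplified exosome fraction had more detected assays, 219 in hypoxia and 221 in normoxia, against 155 and 162 in cells. miR-519c-3p was seen in the hypoxic exosome fraction only, at Ct 33.98, and miR-199a-5p in no sample. Between the exosome samples, 16 of the 377 assays were seen in hypoxia only and 18 in normoxia only. miR-373, reported as induced by HIF, was at -0.34 in the exosome fraction and 0.45 in cells.

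**Figure D5:**
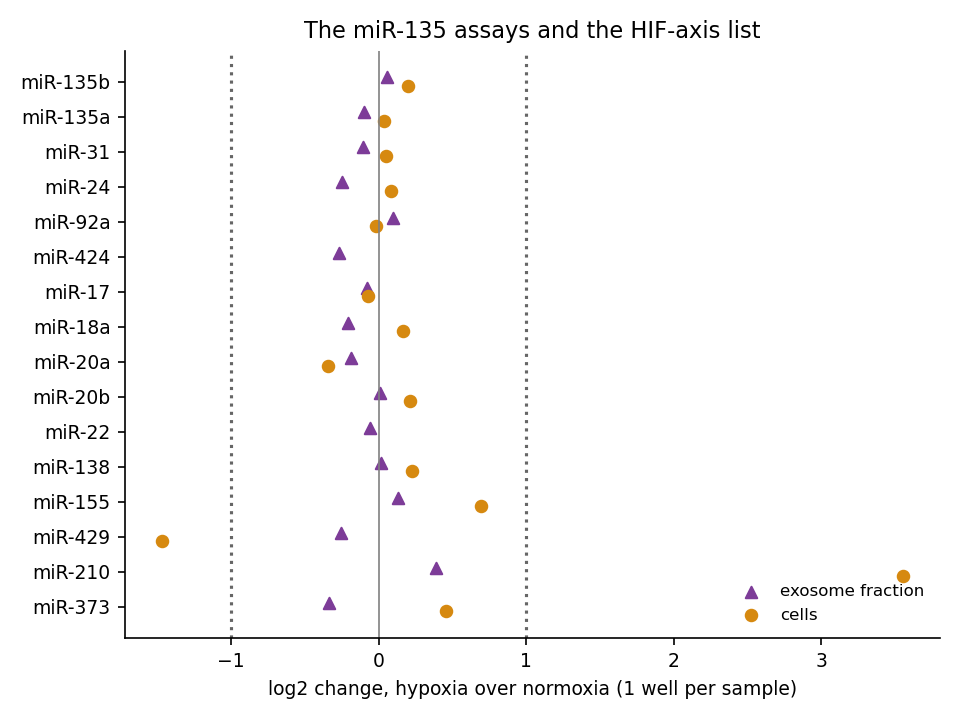
Log2 change of hypoxia over normoxia (horizontal axis) for the miR-135 assays and the HIF-axis miRNAs measured in both samples of at least 1 comparison, with purple triangles for the exosome fraction and orange circles for cells, 1 well per sample. Only miR-210 (3.55) and miR-429 (-1.47), both in cells, lie outside the dotted 2-fold lines, and miR-135b (0.06 and 0.20) and miR-135a (-0.10 and 0.03, with signs that flip under other normalizers) lie next to 0.

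miR-135a also belongs to a group of 11 miRNAs reported to repress RUNX2, a transcription factor needed for osteoblasts, the bone-forming cells that myeloma suppresses. In cells 5 of the 11 were detected in both samples, none past 2-fold, with a median log2 change of 0.01. miR-205 was at -0.88, miR-23a at -0.73, miR-30c at 0.01, miR-135a at 0.03 and miR-204 at 0.74, and miR-133a (Ct 32.96 in hypoxia) was not detected in normoxic cells. In the exosome fraction 9 were detected in both samples, with a median of 0.00. Past 2-fold were miR-338-3p, higher at 1.40, and miR-34c-5p, lower at -1.38 with Ct values of 34.43 in hypoxia and 33.00 in normoxia. These are 2 of 9, where 7.39% of all assays were past 2-fold. The share was 43.5% of the assays with a mean Ct of 32 or more, as miR-34c-5p had. It was 2.78% of those with a lower mean Ct, as miR-338-3p had (30.57 in hypoxia and 31.92 in normoxia). The rest were miR-135a at -0.10, miR-133a at -0.08, miR-30c at -0.02, miR-23a at 0.00, miR-218 at 0.03, miR-205 at 0.04 and miR-204 at 0.09. miR-137 and miR-217 were at the ceiling in all 4 samples.

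The gene MIR135A1 lies 25.9 kb from the let-7g gene, which the card also measures and which is named here after its values were seen. let-7g, a tumour suppressor miRNA of the let-7 family, had a Ct of 24.00 in the hypoxic and 23.50 in the normoxic exosome fraction, and 27.76 in hypoxic and 27.96 in normoxic cells. Its log2 change was -0.45 in the exosome fraction and 0.19 in cells, beside -0.10 and 0.03 for miR-135a, whose assay also reads the gene on chromosome 12.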

How the data were processed

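Quantitative PCR of miRNAs was done by the authors on TaqMan array cards, 1 well per miRNA, with Data Assist software version 3.1, per the series' design text; only exosome products were pre-amplified, per the labels' protocols. The deposited Ct values (a score in cycles, not normalized) were used. The authors' deposited ratio of hypoxia over normoxia was used as a check. Log2 changes were the negative difference in Ct after subtraction of the mean of 4 U6 wells (cells) or the ath-miR159 spike-in (exosome fraction). No detection filter other than a Ct under 35 was used, and 2-fold (4-fold between compartments) was the threshold. With 1 sample per group no test was made, and a Ct carries no count, so depth is unknown and no counting interval applies. Named miRNAs were the members, controls, the 5 assays nearest in centred Ct, and list members. Named after the values were seen were let-7g, the assays nearest in pattern (miR-101 and miR-29a among them), miR-493 and miR-520e. Members and lists were chosen with earlier results of these data known. The calculation (Python 3.11.15, pandas 2.3.3) was tested on simulated data. The planted changes were well past the threshold, with equal normalizers and less noise than late assays show. That test therefore checks the arithmetic and not the normalization or the reliability of small changes. Sequences came from RefSeq tables (GRCh38.p14), in which both members matched. Alternatives were other normalizers, a Ct limit of 32 and 1.9-fold amplification per cycle.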

Additional observations from a re-analysis of the deposited data

Results flagged for a closer look

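The log2 change of miR-135a (hypoxia over normoxia) was -0.10 in the exosome fraction and 0.03 in cells, opposite in sign, with a difference of -0.13. This was not particular to miR-135a. The median log2 change of all assays was -0.07 in the exosome fraction and 0.03 in cells. Over the 138 assays detected in all 4 samples the median difference was -0.17, and 30 of them had a difference smaller in size. The difference of miR-135a between the compartments was not tested, since each group is 1 sample. With the median Ct over assays detected in all 4 samples as normalizer it was -0.23. The sign in the exosome fraction turned with the median Ct as normalizer. That in cells turned with the mean of RNU44 and RNU48, mainly through RNU44.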

How the results depend on the processing

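No paired analysis was possible because each group has 1 sample. Of 58 alternative values, 31 moved by less than the SD between U6 wells (0.14 cycles) or, for counts, by at most 1.5 times. Over all normalizers and amplification settings the log2 change with oxygen stayed within 2-fold for both members, from 0.052 to 0.26 (miR-135b, cells), 0.06 to 0.26 (miR-135b, exosome fraction), -0.12 to 0.09 (miR-135a, cells) and -0.10 to 0.10 (miR-135a, exosome fraction). The ends -0.12 and 0.052 came with RNU44 and RNU48, and 0.26 and 0.10 in the exosome fraction with the median Ct. The response difference between the compartments was -0.23 for both members with the median Ct over assays detected in all 4 samples. With a Ct under 32 required, neither member is detected in cells and no value is given. For the log2 level of the exosome fraction over cells, in hypoxia and then normoxia, the mean Ct gave -2.06 and -2.10 for miR-135b and -1.09 and -1.14 for miR-135a. At 1.9-fold per cycle the values were -2.77 and -2.56 for miR-135b and -1.87 in hypoxia for miR-135a. The median of the assays' own differences, chosen after seeing the data, gave -2.16 and -2.32 for miR-135b and -1.19 and -1.35 for miR-135a. The median of all miRNAs detected in each sample gave -0.023 and 0.032 for miR-135b and 0.95 and 1.00 for miR-135a; by construction it compares different sets of assays. Under a Ct of 32 in both samples, the assays past 2-fold were 1 higher and 4 lower in cells (11 and 9 at 35) and 2 higher and 0 lower in the exosome fraction (8 and 7 at 35), with fewer assays counted. RNU44 and RNU48 gave 6 higher and 10 lower in cells. The assays past 4-fold between the compartments were 2 higher and 15 lower under a Ct of 32 (4 and 23 at 35), and 9 higher and 16 lower with the mean Ct; apart from the fewer assays, the cause was not tested.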

Other observations

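When each assay's own mean was also removed, so that only its pattern over the 4 samples counted, the assay nearest to miR-135a was miR-31. The root mean square difference was 0.014 cycles, and of the 9453 pairs among the 138 assays 2 were closer. Next came miR-101 (0.035 cycles) and miR-636 (0.064), while miR-135b was at position 32 (0.49). miR-31 is a reported repressor of HIF1AN, but so is miR-24, whose pattern differed. The log2 level of miR-24 in the exosome fraction over cells was 0.65 in hypoxia and 1.07 in normoxia, against -2.02 and -1.79 for miR-135a. The likeness of miR-31 was noticed after the values were seen and rests on 4 values per assay. Of those, 3 of miR-31 and 3 of miR-135a lie within 0.1 of a whole cycle. By this measure 1.31% of all pairs were within 0.1 cycles of each other. By the same measure miR-29a was the nearest to miR-135b (0.089 cycles), with a Ct of 19.94 in the hypoxic and 19.91 in the normoxic exosome fraction, and 23.95 in hypoxic and 24.33 in normoxic cells.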
